A study of Homo sapiens with 24 samples.

Results

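The genes described here are 40 genes of G2, mitosis and cytokinesis, followed in 24 RNA-seq libraries of breast cancer cells. They are defined by a list of symbols of known mitotic genes, and the rule uses no measured value beyond a filter on low values. The list was, however, drawn up with earlier results of these data known. An entry of the deposited gene table was a member if its name, split at commas, held a listed symbol and if it reached 10 scaled fragments in at least 3 libraries. All 40 were found among the 20162 entries that passed this filter, and the lowest member value in any library was 187 scaled fragments, for CDC25C. A scaled fragment is an estimated fragment count after 1 common scaling of the 24 libraries.

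The study used 2 derivatives of T47D, a line of luminal breast cancer cells: T47D-co, which carries the progesterone receptor (PR), and T47D-Y, which the design text lists as PR null. Each line was given IFN-alpha (20 IU/ml) or water for 18 h, and then R5020 (10 nM), a synthetic progestin that binds PR, or its vehicle EtOH for 6 h. This gave 8 groups: R5020 with IFN, EtOH with IFN, R5020 with water and EtOH with water in T47D-co, and the same 4 in T47D-Y. Each group had 3 biological replicates, all cells grew in the same medium with serum and insulin, and each line stood for 1 receptor state, so that line and receptor state cannot be told apart.

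Mitotic genes are transcribed late in the cell cycle, when the repressor form of the MuvB core complex has given way to forms with B-MYB and FOXM1. Their promoters often hold a short element, the cell cycle genes homology region (CHR), which MuvB binds, together with CCAAT boxes that NF-Y binds. Cyclin B with CDK1 then drives entry into mitosis, the spindle checkpoint holds back the anaphase-promoting complex until chromosomes are attached, and the central spindle guides cytokinesis. Progestins are known to push breast cancer cells through an initial round of division and then to arrest them, and interferons are known to slow growth in many cell types.

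Libraries held 14141293 to 33607459 estimated fragments (median 18385812), of which the members took 0.419 to 0.623%. PGR, the gene of PR, lay between 11807 and 27957 scaled fragments in the 12 T47D-co libraries and between 418 and 719 in the 12 T47D-Y libraries. The share of mitochondrial fragments was 0.942 to 1.07% in 4 libraries, namely T47D-co EtOH water replicate 2, T47D-Y R5020 water replicates 1 and 2 and T47D-Y EtOH water replicate 1, against 3.17 to 4.74% in the other 20. Of 10 luminal markers 9 passed the filter, with TFF1 below it. Of 15 markers of other cell types 9 were matched to an entry, the other 6 were not analysed here, and 5 of the 9 passed the filter. Of those 5 only COL1A1, ACTA2 and TP63 exceeded 100 scaled fragments in any library, while PTPRC, CD3E, LYZ and CDH5 did not exceed 9.21. In bulk libraries such as these, fewer cells in G2 and mitosis and less mitotic RNA per cell cannot be told apart.

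The proximal promoters of the members whose R5020 response is described most closely are shown here, because the CHR and CCAAT letters in them are a feature that the choice of the genes did not use. RefSeq windows of 300 bases (build GRCh38.p14, 250 bases before to 50 after the gene start) were given for 34 of the 40 members. AURKA, TTK, UBE2C, BIRC5, TPX2 and FOXM1 had none. Sequences run 5′ to 3′ on the strand of the gene, and capitals mark every CHR match (TTTGAA or TTCGAA) and every CCAAT match on either strand, with a match on the opposite strand read as its reverse complement.
KIF20A, chr5:138178862-138179161 (plus strand): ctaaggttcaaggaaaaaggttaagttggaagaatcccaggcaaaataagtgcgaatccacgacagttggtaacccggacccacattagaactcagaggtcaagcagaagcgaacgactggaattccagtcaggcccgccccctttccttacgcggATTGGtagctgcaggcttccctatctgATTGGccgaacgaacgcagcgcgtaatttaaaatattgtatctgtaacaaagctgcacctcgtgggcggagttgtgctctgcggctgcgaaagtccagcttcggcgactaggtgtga
KIF23, chr15:69414099-69414398 (plus strand): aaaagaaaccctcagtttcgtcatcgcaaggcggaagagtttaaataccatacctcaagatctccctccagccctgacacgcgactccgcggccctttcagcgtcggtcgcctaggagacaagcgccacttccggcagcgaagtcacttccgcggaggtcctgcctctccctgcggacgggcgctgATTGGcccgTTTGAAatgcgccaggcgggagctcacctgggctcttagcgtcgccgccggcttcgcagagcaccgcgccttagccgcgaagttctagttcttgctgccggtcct
MAD2L1, chr4:120066799-120067098 (minus strand): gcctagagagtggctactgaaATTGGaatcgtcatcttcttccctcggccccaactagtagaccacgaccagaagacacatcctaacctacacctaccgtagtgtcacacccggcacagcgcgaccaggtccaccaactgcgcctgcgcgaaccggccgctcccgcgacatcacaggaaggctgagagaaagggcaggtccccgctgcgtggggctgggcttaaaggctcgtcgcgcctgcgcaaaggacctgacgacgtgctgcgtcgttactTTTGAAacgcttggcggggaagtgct
CENPE, chr4:103198294-103198593 (minus strand): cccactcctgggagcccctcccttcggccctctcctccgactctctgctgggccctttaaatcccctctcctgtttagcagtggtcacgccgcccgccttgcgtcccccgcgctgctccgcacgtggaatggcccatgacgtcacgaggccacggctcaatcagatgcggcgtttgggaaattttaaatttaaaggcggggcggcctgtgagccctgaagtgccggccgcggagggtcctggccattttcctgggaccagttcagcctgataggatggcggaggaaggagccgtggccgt
TOP2A, chr17:40417847-40418146 (minus strand): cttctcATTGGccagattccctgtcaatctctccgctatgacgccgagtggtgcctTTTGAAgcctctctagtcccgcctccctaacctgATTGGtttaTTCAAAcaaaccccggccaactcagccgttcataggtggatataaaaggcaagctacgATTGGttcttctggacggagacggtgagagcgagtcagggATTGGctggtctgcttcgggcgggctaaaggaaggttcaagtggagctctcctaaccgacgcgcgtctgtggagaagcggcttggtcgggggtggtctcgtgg
PLK1, chr16:23678639-23678938 (plus strand): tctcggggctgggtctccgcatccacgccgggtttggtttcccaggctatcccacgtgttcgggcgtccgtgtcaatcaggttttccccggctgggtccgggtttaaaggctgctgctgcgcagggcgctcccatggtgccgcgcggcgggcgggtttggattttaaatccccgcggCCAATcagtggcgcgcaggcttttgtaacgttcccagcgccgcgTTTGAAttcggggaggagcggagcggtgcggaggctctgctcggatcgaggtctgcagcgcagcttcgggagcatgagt
Of these 6, the windows of KIF23, MAD2L1, TOP2A and PLK1 held both motifs. The KIF20A window held CCAAT at 94 and 67 bases before the start and no CHR letters, and the CENPE window held neither motif. In PLK1 the CHR letters began 29 bases before the start and CCAAT 73 bases before it, and in KIF23 the distances were 55 and 64 bases. Where no match was found, only these letters are missing from this window.

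In 31 of the 34 member windows, bases after the start were found near the beginning of a GENCODE transcript of the gene. The windows of CDC20, KIF11 and MKI67, which held both motifs, gave no such match and were kept. CHR letters were found in 24 of the 34 member windows (70.6%), against 16.6% of all 27305 promoters in the table. CCAAT was found in 26 (76.5%), against 35.7%, and both motifs in 20 (58.8%), against 6.58%; in 2 cases a CHR match and a CCAAT match overlapped. A second list of 79 mitotic genes held CHR letters in 43 of 61 windows (70.5%), and a list of 42 DNA replication and G1/S genes in 3 of 36 (8.33%). The shares were close between members grouped by their response to R5020, described next. CHR letters stood in 7 of 9 windows of members that rose in T47D-co with water (77.8%), in 8 of 12 of those that fell (66.7%) and in 9 of 13 of those not called (69.2%), and the shares for CCAAT were 77.8, 75 and 76.9%.

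R5020 given for 6 h to T47D-co cells with water raised some mitotic genes and lowered others. On the common scale the shares were near those of all entries tested. Under quantile normalization the share of members called lower was well above that of all entries, with counts given below. Of the 40 members 11 rose and 15 fell, and 14 did not pass the test. The genes of the central spindle kinesins KIF23 and KIF20A, of the checkpoint proteins MAD2L1 and BUB1B and of survivin (BIRC5) rose by 0.38 to 0.55 on the log2 scale. The kinetochore kinesin CENPE, topoisomerase TOP2A and the kinases PLK1 and AURKA fell by 0.23 to 0.48. The test was limma on log2(scaled fragments + 1), two-sided, with the Benjamini-Hochberg method over all 20162 entries, and a gene was called at an adjusted p under 0.05. By this rule 26.6% of all entries were called higher and 30% lower, so the share of members called, 27.5% higher and 37.5% lower, lay near the background. The members' median log2 fold change was -0.07, against -0.04 over all entries. Their summed level was 86165 ± 2281 scaled fragments with R5020 and 86232 ± 3569 with EtOH (SD, n = 3 each). As a share of all fragments of a library the members were lower with R5020, without overlap. They took 0.4187 to 0.4377% with R5020 and 0.4507 to 0.4704% with EtOH, so an unchanged sum holds only on the common scale.

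Among the genes of entry into mitosis, 1 of 6 rose and 2 fell. CCNB1, cyclin B1, had 1523, 1512 and 1564 scaled fragments with R5020, against 1645, 1615 and 1796 with EtOH. All R5020 libraries lay below all EtOH libraries, and the log2 fold change was -0.14 ± 0.04 (SE; limma, Benjamini-Hochberg adjusted p = 0.00204). CDC25C, a phosphatase that activates CDK1, fell by 0.27 ± 0.10 (adjusted p = 0.0204), while the locus it shares with other entries, of which it took 23.7% of the fragments, changed by -0.18. Its call was lost without EtOH replicate 2 (-0.24), EtOH replicate 3 (-0.24) or R5020 replicate 1 (-0.25). CDK1 itself, the kinase of mitotic entry, had 3076, 2979 and 3071 with R5020 and 3323, 2959.8 and 3256 with EtOH. These groups overlapped and the change of -0.06 ± 0.04 was not called. CDC25B, another CDK1 phosphatase, was the only riser at 0.11 ± 0.05 (adjusted p = 0.0333), and with 1 library removed in turn it passed in only 1 of 6 cases, without EtOH replicate 3, while the other 5 gave 0.09 to 0.12. CCNA2 (cyclin A2) and CCNB2 (cyclin B2) were not called at 0.02 and -0.10.

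Of the 7 mitotic kinases 1 rose and 4 fell. PLK1, polo-like kinase, which acts at centrosomes and kinetochores, had 1290.4, 1265 and 1253 scaled fragments with R5020 and 1563, 1338 and 1581 with EtOH. The groups did not overlap and the fold change was -0.23 ± 0.05 (limma, Benjamini-Hochberg adjusted p = 0.000596). AURKA, Aurora A, which builds the spindle poles, had 1236, 1272 and 1239.9 with R5020, below every EtOH library at 1461, 1382 and 1552, and changed by -0.23 ± 0.04 (adjusted p = 5.7e-05). NEK2, which separates centrosomes, fell by 0.21. TTK, the checkpoint kinase also called MPS1, fell by 0.16 with overlapping groups and was not called without EtOH replicate 1 (-0.14), EtOH replicate 3 (-0.12) or R5020 replicate 3 (-0.13). BUB1B, the checkpoint pseudokinase BubR1, went the other way. It had 2758, 2702 and 2971 with R5020, above all EtOH libraries at 2063, 1894 and 2159, and changed by 0.46 ± 0.05 (adjusted p = 1.12e-08); its entry carries PAK6 and other names as well, so it is not the measure of BUB1B alone. AURKB (Aurora B) and BUB1 were not called at -0.10 and 0.05.

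Of the 5 genes that control anaphase, 3 rose and 1 fell. MAD2L1, which encodes the checkpoint protein MAD2, had 600.1, 602 and 591 scaled fragments with R5020, against 401, 390.4 and 433 with EtOH. The lowest R5020 library was well above the highest EtOH library, and the fold change was 0.55 ± 0.07 (limma, Benjamini-Hochberg adjusted p = 1.6e-07). CDC20, the activator of the anaphase-promoting complex that MAD2 holds back, had 890.1, 1005 and 959 with R5020 and 774, 700.2 and 804 with EtOH. It rose by 0.33 ± 0.06 (adjusted p = 6.5e-05), with no overlap between the groups. ESPL1, separase, which cuts cohesin, rose by 0.23 ± 0.05. UBE2C, the ubiquitin-conjugating enzyme of the complex, fell by 0.13 with overlapping groups (adjusted p = 0.0224), and it was not called without EtOH replicate 3 (-0.07), R5020 replicate 1 (-0.10) or R5020 replicate 3 (-0.11). Securin (PTTG1) was not called at -0.14.

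**Figure D1:**
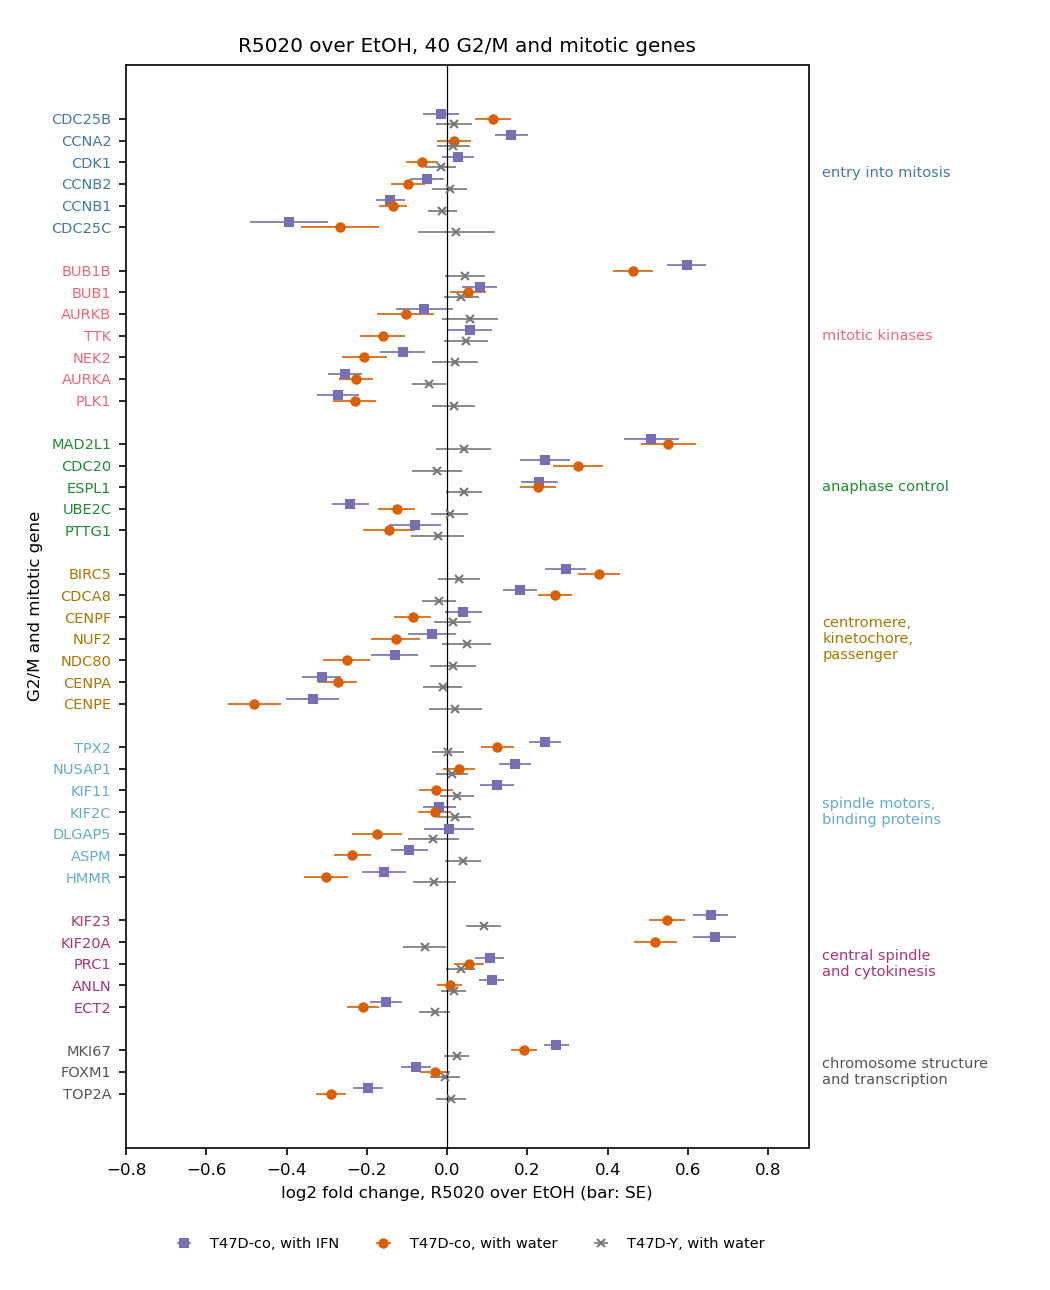
Log2 fold change of R5020 over EtOH for the 40 members, in 7 role groups down the page, with the standard error as bars; squares are T47D-co with IFN, circles T47D-co with water and crosses T47D-Y with water. In T47D-co members of nearly every role group lie on both sides of 0, and in T47D-Y all crosses lie between -0.06 and 0.09.

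At the centromere and kinetochore 2 of 7 members rose and 3 fell. CENPE, the kinesin that carries chromosomes to the spindle equator, had 1052, 1015 and 1207 scaled fragments with R5020 and 1595, 1399 and 1570.5 with EtOH. This was the strongest fall of the 40 on the common scale, with all R5020 libraries below all EtOH libraries and a fold change of -0.48 ± 0.07 (limma, Benjamini-Hochberg adjusted p = 8.76e-07). CENPA, the histone H3 variant of centromeres, fell by 0.27 ± 0.05, in an entry whose name also holds SLC35F6. NDC80, a microtubule-binding subunit of the outer kinetochore, had 680.2, 654 and 756 with R5020 and 835, 814 and 833 with EtOH, again apart, and fell by 0.25 (adjusted p = 0.000663). Its partner NUF2 and the kinetochore protein CENPF were not called at -0.13 and -0.09. Both subunits of the chromosomal passenger complex in this group rose. BIRC5, survivin, had 745, 752 and 773 with R5020, above all EtOH libraries at 573, 586 and 587, and changed by 0.38 ± 0.05 (adjusted p = 7.71e-07), against 0.33 for its locus. CDCA8, borealin, rose by 0.27 ± 0.04 (adjusted p = 6.57e-06).

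Of the 7 spindle motors and microtubule-binding proteins 1 rose and 3 fell. HMMR, a spindle assembly factor, had 889.9, 862 and 955 scaled fragments with R5020 and 1150.1, 1047 and 1141 with EtOH, without overlap, and fell by 0.30 ± 0.05 (limma, Benjamini-Hochberg adjusted p = 3.35e-05). ASPM, which acts at spindle poles, fell by 0.24 and DLGAP5, a spindle stabiliser, by 0.17, the second not called without EtOH replicate 3 (-0.14) or R5020 replicate 2 (-0.16). TPX2, which activates AURKA on spindle microtubules, rose by 0.13 ± 0.04 with overlapping groups, but its value was -0.04 under quantile normalization, and it was not called without EtOH replicate 2 (0.07) or R5020 replicate 3 (0.10). The plus-end motor KIF11, the depolymerase KIF2C and the bundling protein NUSAP1 were not called, at -0.03, -0.03 and 0.03.

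Of the 5 genes of the central spindle and cytokinesis 2 rose and 1 fell. KIF23, the kinesin of the centralspindlin complex, had 3289, 3213 and 3359 scaled fragments with R5020, against 2312, 2121 and 2317 with EtOH. The groups were far apart, and the fold change was 0.55 ± 0.04 (limma, Benjamini-Hochberg adjusted p = 5.59e-11). KIF20A, the kinesin that moves the passenger complex to the central spindle, had 1196, 1101 and 1180.3 with R5020 and 811, 752 and 865 with EtOH. It rose by 0.52 ± 0.05 (adjusted p = 4.91e-09), but the entry took 42.4% of the fragments at a locus shared with BRD8 and CDC23 (chr5:137475454-137549032, hg19), and the locus as a whole changed by 0.10. For KIF23 and MAD2L1, which took 82.3 and 81.8% of their loci, the locus changed by 0.46 and 0.36. ECT2, the exchange factor that activates RhoA at the division plane, had 5819, 5694 and 6099 with R5020, below all EtOH libraries at 7067, 6464 and 6847, and fell by 0.21 (adjusted p = 5.54e-05). The microtubule bundler PRC1 and the ring scaffold ANLN were not called at 0.05 and 0.01.

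The last role group joins MKI67, TOP2A and FOXM1. MKI67, which encodes the Ki-67 antigen that coats mitotic chromosomes, had 9929, 9295 and 10136 scaled fragments with R5020 and 8541, 8277 and 8887 with EtOH. It rose by 0.19 ± 0.03 (limma, Benjamini-Hochberg adjusted p = 9.64e-06) with no overlap, but was at -0.03 under quantile normalization. TOP2A, which untangles sister chromatids, had 4018, 3811 and 3939 with R5020 and 4861, 4588 and 4934 with EtOH. All R5020 libraries were below all EtOH libraries, and the fold change was -0.29 ± 0.04 (adjusted p = 3.19e-07). FOXM1, a transcription factor of late cell cycle genes, had 2294, 2156 and 2312 with R5020 and 2298, 2236 and 2372 with EtOH, which overlapped, and was not called at -0.03. Under quantile normalization the members' split was 8 higher and 21 lower, and without the 4 libraries of low mitochondrial share it was 9 and 15. Of all 20162 entries, 5064 were called higher and 6174 lower under quantile normalization, and 4978 and 5433 without those 4 libraries. The share of members called lower under quantile normalization thus lay well above that of all entries. The luminal markers moved with R5020 in the same libraries: summed over the 9 tested, they were at 74553 to 76603 with R5020 and at 105329 to 106296 with EtOH, and the 5 tested markers of other cell types summed to 710 to 812 with R5020 and 947 to 997 with EtOH. Their part in the members' values was not tested.

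**Figure D2:**
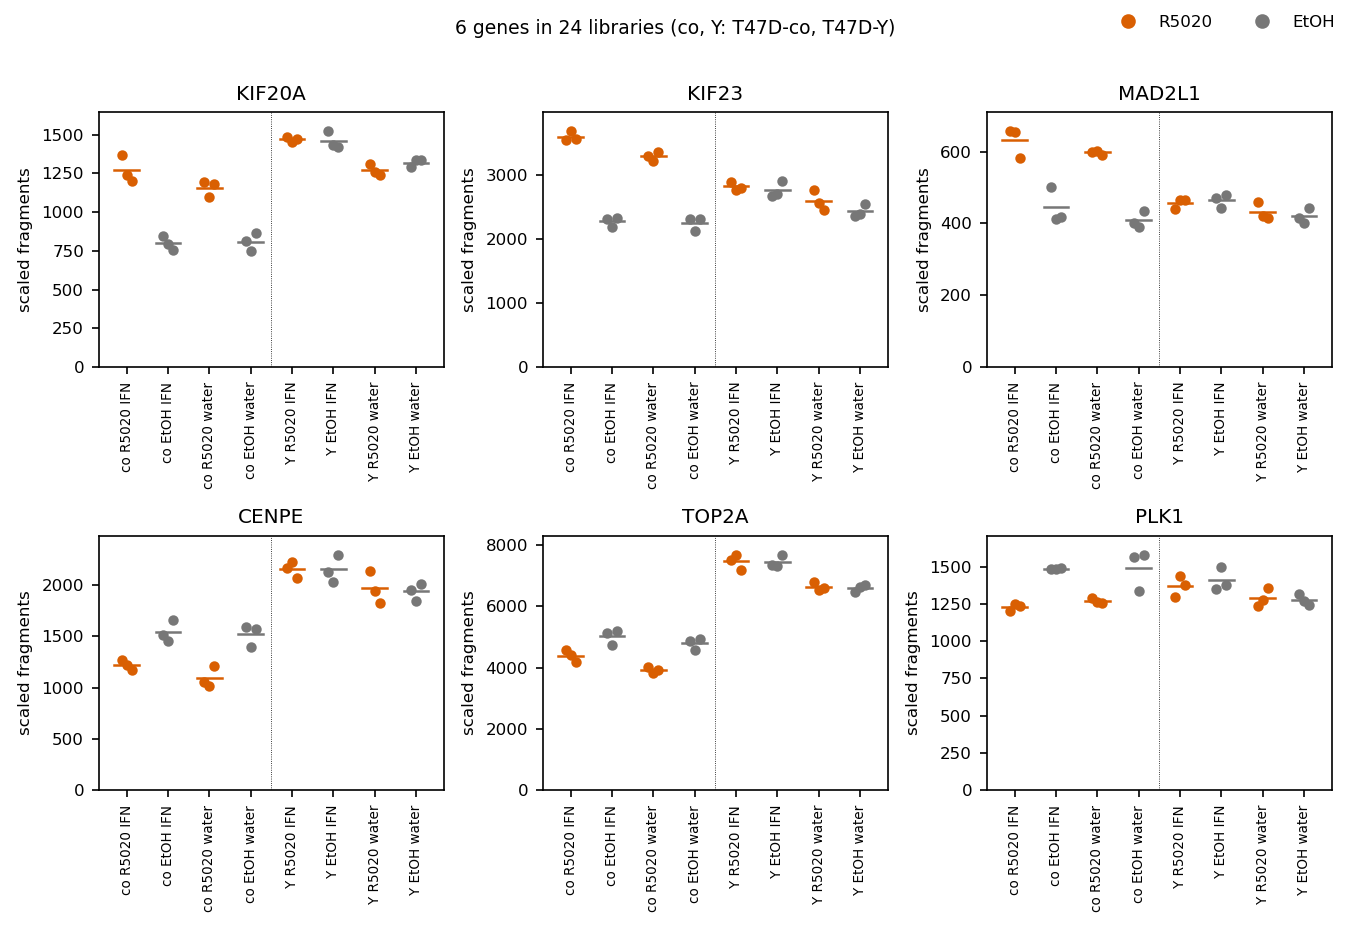
Scaled fragments per library (points, linear axis from 0) and group mean (lines) for KIF20A, KIF23, MAD2L1, CENPE, TOP2A and PLK1 in the 8 groups, 3 libraries each. In T47D-co the R5020 points of KIF20A, KIF23 and MAD2L1 lie above the EtOH points and those of CENPE, TOP2A and PLK1 below them, with IFN and with water, while in T47D-Y the R5020 and EtOH points of all 6 overlap.

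The same comparison was made in T47D-co cells that had received IFN-alpha, with libraries of its own. There 15 of 40 members rose and 10 fell, where 27.5% of all entries were called higher and 30.6% lower. Of these, 10 had also risen with water (10 of the 15 with IFN and of the 11 with water), namely KIF20A, KIF23, MAD2L1, BUB1B, BIRC5, CDC20, ESPL1, CDCA8, MKI67 and TPX2. Likewise 10 had fallen with water (all 10 with IFN, of 15 with water), namely CENPE, TOP2A, PLK1, AURKA, CCNB1, CDC25C, CENPA, HMMR, ECT2 and UBE2C. No member was called in opposite directions, and 34 of 40 estimates had the same sign. Overlaps of this kind were not computed over all entries, here or below. Under quantile normalization the split was 7 higher and 17 lower, so that the balance of rises and falls depends on the scaling. Of all 20162 entries, 5112 were called higher and 6473 lower in that setting. The summed members were at 94990 ± 2402 scaled fragments with R5020 and 89964 ± 2871 with EtOH (SD, n = 3 each). Their share of all fragments of a library did not rise with R5020. It was 0.4547 to 0.4784% with R5020 and 0.4614 to 0.4895% with EtOH, with overlap.

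KIF20A with IFN had 1370.3, 1239 and 1200.3 scaled fragments after R5020 and 846, 795 and 757 after EtOH. The groups were apart, at a fold change of 0.67 ± 0.05 (limma, Benjamini-Hochberg adjusted p = 4.4e-11), against 0.18 for its locus. KIF23 had 3536, 3679 and 3550.4 with R5020, above all EtOH libraries at 2313, 2186 and 2330.1, and rose by 0.66 ± 0.04; its locus changed by 0.59. BUB1B with its merged names had 3319.5, 3266 and 3093 with R5020 and 2101, 2074 and 2226 with EtOH, and rose by 0.60 ± 0.05. MAD2L1 had 656, 655 and 582 with R5020 and 502, 413 and 419 with EtOH, so that the groups again did not overlap. Its fold change was 0.51 ± 0.07 (adjusted p = 5.62e-07). BIRC5 rose by 0.29 ± 0.05 and MKI67 by 0.27 ± 0.03, the second at -0.05 under quantile normalization.

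The members that fell with IFN included the kinases PLK1 and AURKA and the kinesin CENPE. NEK2, TTK, ASPM, DLGAP5 and NDC80, which fell with water, were not called with IFN, at -0.11, 0.06, -0.09, 0.00 and -0.13. CENPE had 1270.5, 1218 and 1168 scaled fragments after R5020 and 1513, 1449 and 1655 after EtOH, a change of -0.34 ± 0.07 (limma, Benjamini-Hochberg adjusted p = 0.000119) without overlap. PLK1 had 1204, 1252 and 1236 with R5020, below all EtOH libraries at 1483, 1484 and 1490.5, and fell by 0.27 ± 0.05 (adjusted p = 9.61e-05). TOP2A had 4563, 4405 and 4197 with R5020 and 5141, 4755 and 5196 with EtOH, also apart, at -0.20 ± 0.04. AURKA changed by -0.25, UBE2C by -0.24, CENPA by -0.31 and CDC25C by -0.39. Called higher with IFN but not with water were CCNA2 at 0.16, NUSAP1 at 0.17, KIF11 at 0.12, ANLN at 0.11 and PRC1 at 0.11. Under quantile normalization KIF11, ANLN and PRC1 turned to -0.06, -0.10 and -0.05, and CCNA2 and NUSAP1 lost the call. Without 1 library, KIF11 was not called without R5020 replicate 1 (0.10) or EtOH replicate 2 (0.08), and PRC1 not without R5020 replicate 1 (0.08), EtOH replicate 1 (0.10) or EtOH replicate 2 (0.10). FOXM1 at -0.08 and CDK1 at 0.03 were not called. The 9 luminal markers summed to 71246 to 77103 with R5020 and 104438 to 108527 with EtOH, and the 5 markers of other cell types to 666 to 728 with R5020 and 884 to 1014 with EtOH; their part in these values was not tested.

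Whether IFN changed the R5020 response was tested as an interaction. In T47D-co no member was called in limma, with 7 of 40 at an unadjusted p under 0.05 and 0 called with voom weights, where 0.873% of all entries were called higher and 0.134% lower. The members' estimates of this difference ran from -0.13 to 0.22, and the smallest Benjamini-Hochberg adjusted p was 0.171. The lists called with and without IFN therefore were not shown to differ for any single member.

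In T47D-Y R5020 changed no mitotic gene past the threshold. With IFN 0 of 40 members passed in limma, 0 were at an unadjusted p under 0.05 and 0 passed with voom weights. The estimates ran from -0.09 to 0.08 with a smallest Benjamini-Hochberg adjusted p of 0.84, where 0.263% of all entries were called higher and 0.0347% lower. With water 0 of 40 passed, 1 was at an unadjusted p under 0.05 and 0 passed with voom weights, with estimates from -0.06 to 0.09, where 0.203% of all entries were called higher and 0.0149% lower. KIF23 with water had 2755, 2554 and 2458 scaled fragments after R5020 and 2352, 2395 and 2541 after EtOH. CENPE had 2134, 1941 and 1825 after R5020 and 1953, 1843 and 2012 after EtOH. In both genes the groups overlapped, and the fold changes were 0.09 ± 0.04 and 0.02 ± 0.07. The interaction of R5020 with IFN in this line gave 0 calls in limma, 1 at an unadjusted p under 0.05 and 0 with voom weights, where 0% of all entries were called.

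The difference between the lines in the R5020 response was tested directly with water. The response of T47D-co exceeded that of T47D-Y in 9 members (22.5%) and was below it in 12 (30%). On the common scale these shares lay near the background, where 21.6% of all entries were called higher and 23% lower. For KIF20A the difference of log2 fold changes was 0.58 ± 0.07 (limma, Benjamini-Hochberg adjusted p = 5.11e-07), for MAD2L1 0.51 ± 0.10 (adjusted p = 0.000108) and for KIF23 0.46 ± 0.06 (adjusted p = 1.05e-06). On the other side CENPE differed by -0.50 ± 0.09 (adjusted p = 9.34e-05), TOP2A by -0.30 ± 0.05 (adjusted p = 4.55e-05) and PLK1 by -0.25 ± 0.08 (adjusted p = 0.00895). All 3 anaphase genes that rose in T47D-co, MAD2L1, CDC20 and ESPL1, were among the 9. The test of the difference uses the same T47D-co libraries in which they rose, so it is no independent support. Under quantile normalization the split was 7 higher and 20 lower, where 3980 of all 20162 entries were called higher and 4890 lower. There the share of members called lower lay well above that of all entries. Without the 4 libraries of low mitochondrial share, T47D-Y with R5020 and water kept only replicate 3, so no count is given.

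The members were set beside 3 other lists of cell cycle genes. In T47D-co R5020 moved DNA replication and G1/S genes almost only upward, with 38 of 42 called higher and 0 lower with IFN (median 0.40), and 41 and 0 with water (median 0.47). The 77 tested genes of the other mitotic list were called higher in 40 and lower in 11 cases with IFN (median 0.14), and in 32 and 13 with water (median 0.09). Examples with water were the checkpoint gene MAD1L1 at 0.81, the centromere gene MLF1IP at 0.80 and the spindle gene TACC3 at 0.72, and in the other direction the kinetochore gene NSL1 at -0.46, PSRC1 at -0.43 and cyclin F (CCNF) at -0.27. Of 17 tested genes for MuvB, DREAM and related regulators, 11 rose and 3 fell with IFN (median 0.22), and 11 and 3 with water (median 0.20). MYBL2, which encodes B-MYB, rose by 0.80 with water, the cell cycle inhibitor CDKN1A by 0.52 and the MuvB subunit LIN52 by 0.46, while the NF-Y subunits NFYC and NFYB were at -0.66 and -0.38 and LIN37 at -0.25. Beside these medians the members stood at -0.01 with IFN and -0.07 with water. No test was made between lists.

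**Figure D3:**
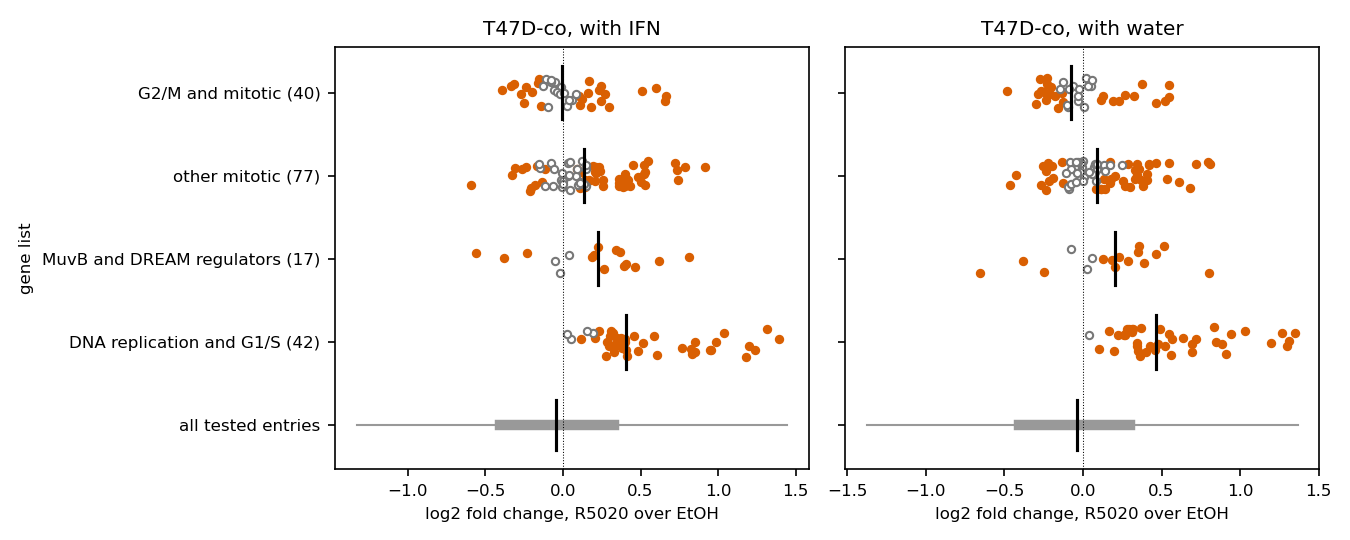
Log2 fold change of R5020 over EtOH in T47D-co for every tested gene of 4 lists, with IFN in the left panel and water in the right; filled points were called, open points were not, black lines are medians, and the last line gives all tested entries as quartile box and whiskers to the 5th and 95th percentiles. The 40 members spread to both sides of 0 while the G1/S genes lie nearly all to the right, at medians of 0.40 with IFN and 0.47 with water.

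On the common scale a minority of the mitotic genes was called higher with IFN-alpha, by small amounts, and no member was called lower. On the authors' deposited scale all called members fell. In T47D-co 15 of 40 members rose with R5020 present, where 7.57% of all entries were called higher and 3.69% lower. Under quantile normalization 9 members were called there, and of all 20162 entries 710 were called higher and 696 lower. With EtOH 2 rose, where the background was 0.57 and 0.432%. In T47D-Y 14 rose with R5020, where 3.08% of all entries were called higher and 1.69% lower, and 14 with EtOH, where it was 2.51 and 1.93%. The members' medians were 0.12 and 0.05 in T47D-co with R5020 and EtOH, and 0.13 and 0.15 in T47D-Y. Over all entries the medians were 0.020, -0.004, -0.002 and -0.001 in the same order. Estimates were above 0 for 36, 36, 39 and 38 of 40 members, called or not. At an unadjusted p under 0.05 in limma were 24, 9, 26 and 30. In the deposited table each line and IFN state appeared to be scaled apart, as inferred from its values. On that scale the median of all entries was -0.165 and -0.182 in T47D-co with R5020 and EtOH and -0.481 and -0.474 in T47D-Y. This was a shift of -0.185, -0.178, -0.479 and -0.473 from the common scale. The members' medians there were -0.067, -0.125, -0.353 and -0.331 in the same order, each less negative than that of all entries. Their calls were all falls, 11 and 21 in T47D-co and 40 and 40 in T47D-Y. Of all 20162 entries, 7043, 8315, 14682 and 14594 were called lower there in the same order, and 162, 125, 101 and 115 higher.

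In T47D-Y with EtOH the called members were those of the chromosome group (3 of 3), cytokinesis (4 of 5), spindle (4 of 7), entry (2 of 6) and kinase (1 of 7) groups. MKI67 had 14349.9, 14935 and 14733 scaled fragments with IFN and 12097, 11972 and 12094 with water. The groups were apart and the fold change was 0.28 ± 0.03 (limma, Benjamini-Hochberg adjusted p = 8.14e-07), but -0.19 on the deposited scale. NUSAP1 had 3237, 3362 and 3342 with IFN and 2887, 2845 and 2811 with water, also apart, a change of 0.22 ± 0.04 that was -0.26 on the deposited scale. CDK1 had 3011, 3013 and 3264 with IFN and 2633, 2661 and 2759 with water, 0.20 ± 0.04 or -0.27 on the deposited scale. FOXM1 and CCNB1 changed by 0.19 and 0.18, or -0.29 and -0.30 on the deposited scale; FOXM1 took 26.9% of the fragments at its locus, which as a whole changed by 0.06. Of the 14 members called, 10 were also called with R5020 in this line, where 14 were called, among them MKI67 at 0.28, TPX2 at 0.21, CDK1 at 0.19 and NUSAP1 at 0.19, which were -0.21, -0.28, -0.29 and -0.29 on the deposited scale. The count with EtOH was 9 without EtOH water replicate 1 and 9 without EtOH IFN replicate 3. With R5020 it was 8 without R5020 IFN replicate 1, 9 without R5020 IFN replicate 2 and 8 without either R5020 water replicate 2 or replicate 3.

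In T47D-co with R5020 present, the spindle group held 5 of the 15 members called. NUSAP1 had 3261, 3145 and 3014 scaled fragments with IFN and 2660.1, 2543 and 2755 with water, a change of 0.24 ± 0.04 (limma, Benjamini-Hochberg adjusted p = 0.000329) without overlap. KIF11 had 4643, 4406 and 4369 with IFN and 3733, 3844 and 3900.2 with water, also apart, and rose by 0.23 ± 0.04 (adjusted p = 0.00137). MKI67 rose by 0.21 ± 0.03, CCNA2 by 0.20, DLGAP5 by 0.23 and TTK by 0.20. DLGAP5 was not called without R5020 IFN replicate 1 (0.18), R5020 water replicate 1 (0.23) or R5020 water replicate 2 (0.22), and TTK not without R5020 IFN replicate 1 (0.16), R5020 water replicate 2 (0.20) or R5020 water replicate 3 (0.17). On the deposited scale NUSAP1, KIF11, MKI67, CCNA2, DLGAP5 and TTK were not called and lay between 0.01 and 0.05. With EtOH MKI67 rose by 0.13 ± 0.03 (adjusted p = 0.0341), but was at -0.05 on the deposited scale, and CDCA8 rose by 0.18 ± 0.04 (adjusted p = 0.0308), but was at 0.00 on the deposited scale. None of the 5 genes of the anaphase group was called in limma in any of the 4 IFN comparisons. At an unadjusted p under 0.05 were 0 and 1 of them in T47D-co with R5020 and EtOH. In T47D-Y 2 were with R5020 and 2 with EtOH, where the smallest Benjamini-Hochberg adjusted p was 0.0638. The checkpoint genes BUB1B and TTK, placed with the kinases, and BUB1 were called higher in T47D-co with R5020. The count of members called in T47D-co with R5020 was 7 without R5020 water replicate 2 and 6 without R5020 IFN replicate 1. The 2 calls with EtOH were both lost without EtOH IFN replicate 1 or 3 or without EtOH water replicate 1 or 2, the last of which is a library of low mitochondrial share, and CDCA8 was also not called without EtOH IFN replicate 2. Without the 4 such libraries the count in T47D-Y with EtOH was 10, where 307 of all 20162 entries were called higher and 207 lower. T47D-Y with R5020 and water then kept 1 library, so no count is given for IFN with R5020.

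Although more members were called in T47D-Y than in T47D-co with EtOH, the difference between the lines in the IFN response was not called for any member in limma. Of the 40, 13 were at an unadjusted p under 0.05, 0 passed with voom weights, and the smallest Benjamini-Hochberg adjusted p was 0.204, where 0.0645% of all entries were called higher and 0.312% lower. The other mitotic list gave 25 higher and 1 lower of 77 in T47D-co with R5020, 0 in limma with EtOH (14 at an unadjusted p under 0.05), and 16 higher in T47D-Y with R5020 and 19 with EtOH. The condensin subunit SMC4 and the kinetochore subunit SPC25 were both at 0.27 in T47D-Y with EtOH. G1/S genes gave 4 calls of 42 in T47D-co with R5020 and 0 with EtOH (13 at an unadjusted p under 0.05), and 3 higher and 1 lower in T47D-Y with R5020 and 5 and 1 with EtOH. The MuvB and DREAM list gave 4 calls of 17, all higher, in T47D-co with R5020 and 0 in the other 3 comparisons, with 1 to 3 at an unadjusted p under 0.05.

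**Figure D4:**
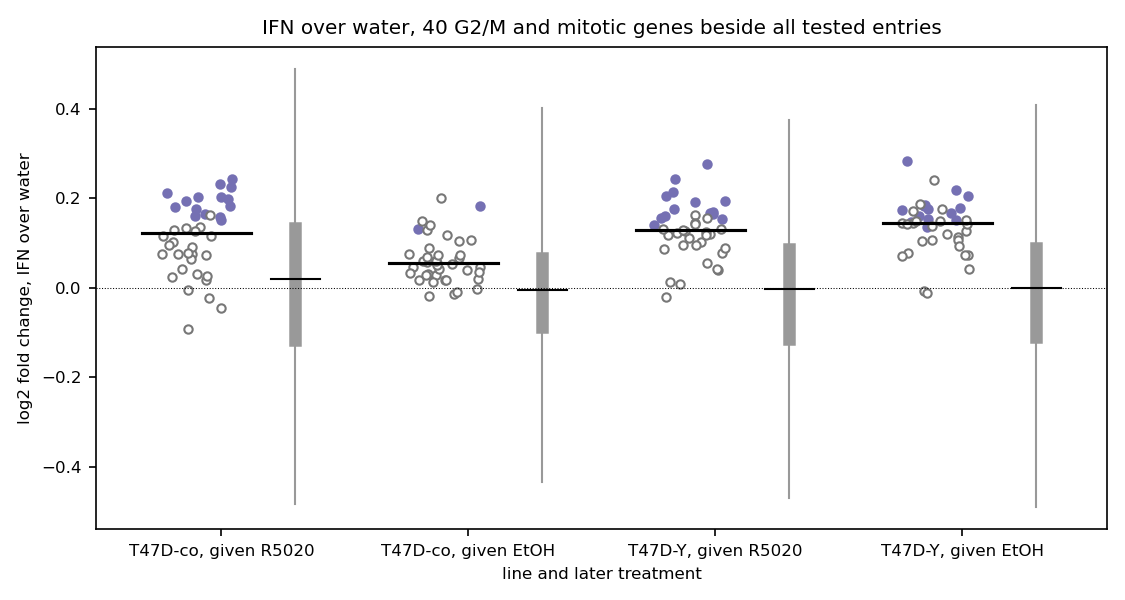
Log2 fold change of IFN over water for the 40 members in 4 comparisons (T47D-co with R5020 and with EtOH, T47D-Y with R5020 and with EtOH), filled where called and open where not, with all tested entries beside them as a quartile box, whiskers to the 5th and 95th percentiles and a line at the median. Most members lie above 0 on the common scale, at medians of 0.12, 0.05, 0.13 and 0.15, while on the deposited scale the medians are -0.067, -0.125, -0.353 and -0.331.

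Most of the 40 members were lower in T47D-co than in T47D-Y, whatever the cells had been given. In the other mitotic list more genes were higher than lower after R5020, as given below. With EtOH and water 4 of 40 members were higher and 31 lower in T47D-co than in T47D-Y, where 29.7% of all entries were called higher and 33.4% lower. With IFN and EtOH the counts were 3 and 31 (background 29.6 and 33%), and 27 of the 31 lower members in each were the same, as were CDK1, ECT2 and KIF11, which were all 3 of the higher members with IFN and 3 of the 4 with water. After R5020 the counts were 7 and 30 with IFN (background 32.5 and 35.8%) and 7 and 29 with water (background 32 and 36.6%). The summed members reached 89964 ± 2871 scaled fragments in T47D-co and 114666 ± 1284 in T47D-Y with EtOH and IFN, and 86232 ± 3569 in T47D-co and 102196 ± 1071 in T47D-Y with EtOH and water (SD, n = 3 each). In the deposited table each line and IFN state appeared to have its own scaling. With EtOH and water the median entry lay -0.231 from its value on the common scale. Whether these sets were also prepared apart is not given in the sources used here. With EtOH and water the 9 luminal markers summed to 105329 to 106296 in T47D-co, and to 112788 or more in every T47D-Y library, and the 5 markers of other cell types to 947 to 997 in T47D-co and 701 or less in T47D-Y. Their part in the difference was not tested.

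All 7 centromere and kinetochore members were lower in T47D-co with EtOH and water. NDC80 had 835, 814 and 833 scaled fragments in T47D-co and 1307, 1314 and 1418 in T47D-Y. The lines were far apart, at a log2 fold change of -0.70 ± 0.06 (limma, Benjamini-Hochberg adjusted p = 8.3e-11). CENPF had 5773, 5678 and 6105 in T47D-co and 8897, 9044 and 9329 in T47D-Y, -0.64 ± 0.05 (adjusted p = 6.53e-12), and CENPA with its merged name was at -0.79. NEK2 had 472, 472 and 510.4 in T47D-co, below all T47D-Y libraries at 727, 814 and 729.7, and was lower by 0.64. KIF20A was at -0.71 ± 0.05, against -0.30 for its whole locus, and FOXM1 at -0.53, against -0.41 for its locus. MKI67 was at -0.49, TOP2A at -0.46 and CDC20 at -0.48. KIF23 at -0.11 and CDC25C at -0.25 were called lower, but their loci stood at 0.08 and 0.39.

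The members higher in T47D-co came from different role groups. ECT2 had 7067, 6464 and 6847 scaled fragments in T47D-co and 4008, 4274 and 4403 in T47D-Y. These did not overlap, and the fold change was 0.68 ± 0.04 (limma, Benjamini-Hochberg adjusted p = 5.26e-14). KIF11 had 4052, 3674 and 3982 in T47D-co and 2908, 3018 and 3042 in T47D-Y, 0.38 ± 0.04, and CDK1 had 3323, 2959.8 and 3256 in T47D-co and 2633, 2661 and 2759 in T47D-Y, 0.24 ± 0.04, each without overlap. PLK1 was higher by 0.22 ± 0.05, but was at -0.01 on the deposited scale. With R5020 and water MAD2L1 and KIF23 were higher in T47D-co as well, at 0.47 and 0.35, and CENPE and TOP2A lower by 0.85 and 0.76. Of the other mitotic list 28 of 77 were higher and 34 lower in T47D-co with EtOH and water. Among them were the CDK1-inhibiting kinase PKMYT1 at 1.10 and the condensin subunit NCAPD2 at -1.15. With EtOH and IFN 25 were higher and 40 lower. After R5020 38 were higher and 30 lower with water (median 0.07), and 37 and 30 with IFN (median 0.06). With EtOH and water the G1/S list had 15 higher and 20 lower of 42. The MuvB and DREAM list there had 8 higher and 6 lower of 17.

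**Figure D5:**
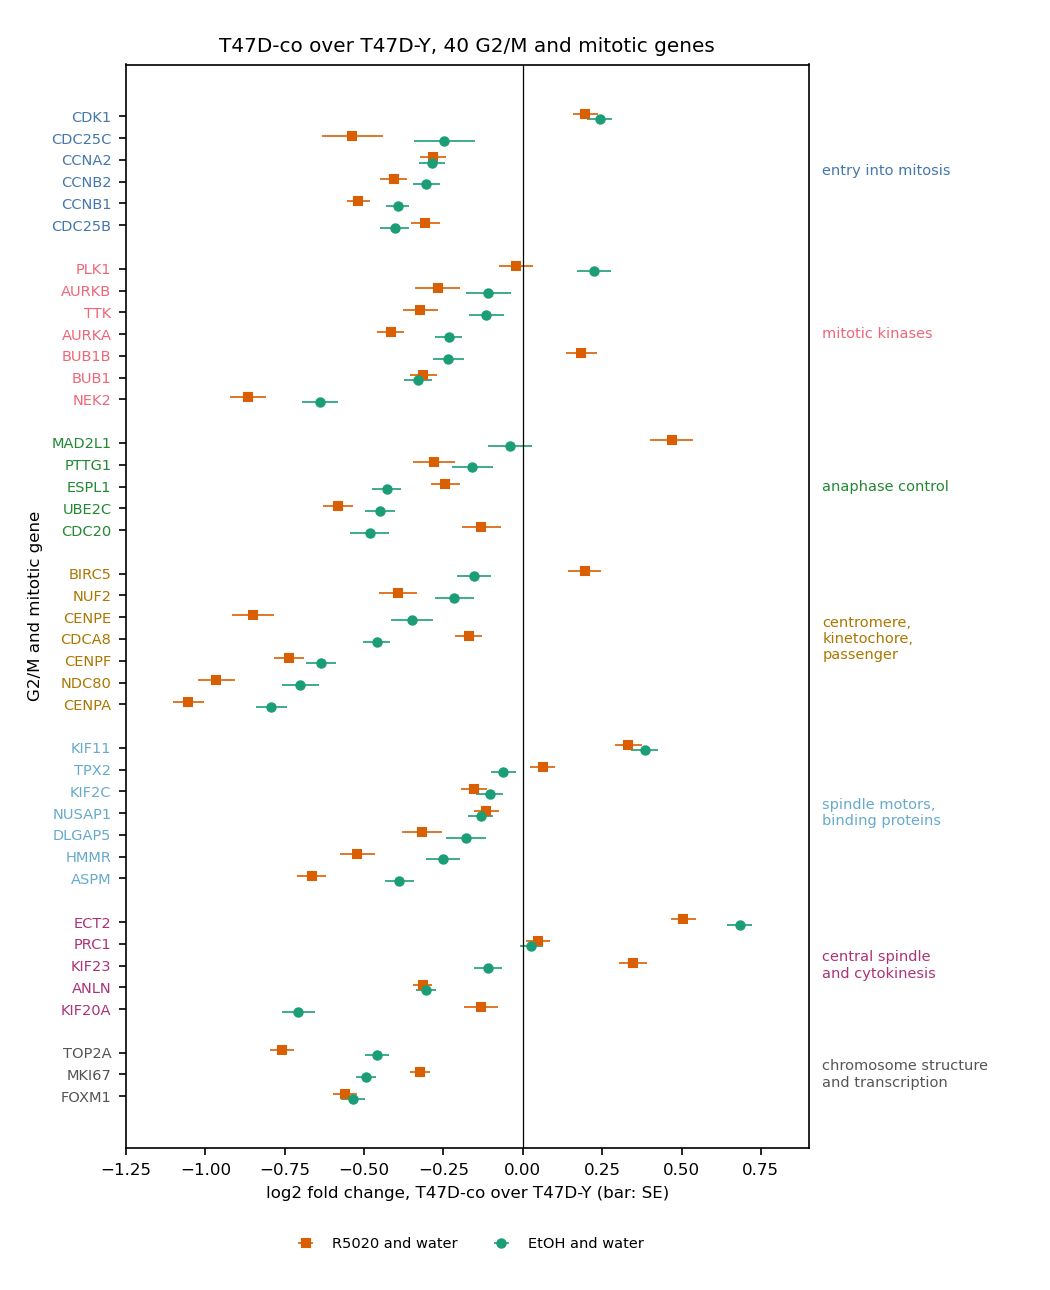
Log2 fold change of T47D-co over T47D-Y for the 40 members by role group, with R5020 and water (squares) and with EtOH and water (circles), and the standard error as bars. Most members lie below 0, ECT2 and KIF11 lie above it in both, and MAD2L1 and KIF23 are above 0 with R5020 and at -0.04 and -0.11 with EtOH.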

How the data were processed

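RNA-seq of total RNA was available for 24 libraries in 8 groups of 3, taken from the labels; per the labels' protocols RNA was extracted with Trizol and sequenced on an Illumina MiSeq. Per the submitters' processing notes, TopHat2 2.0.12, Cufflinks 2.2.1 and the build GRCh37 (hg19) were used. The deposited table has 25541 entries and names no unit, so its values were treated as a signal. From the deposited signal itself, 97.9 to 98.9% of values of genes alone at their locus, and 60.1 to 63.4% of all values, were whole multiples of 1 step per library (tolerance 0.05 of a step, steps 0.637 to 1.36). The values were therefore read as estimated fragments divided by a size factor, set apart in each block of line and IFN state. Because most shared loci gave no whole numbers, no count model was used.

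Values were turned back into fragments with the steps and put on 1 common median-of-ratios scale for the 24 libraries, from 14201 genes that averaged 50 or more fragments. After 25 entries under 10 repeated symbols were left out, 20162 entries with at least 10 scaled fragments in 3 libraries were tested as log2(scaled fragments + 1), a scale that understates changes of low genes. One limma fit (version 3.58.1, R 4.3.3; trended variance, 8 group means, 16 residual degrees of freedom) gave all comparisons, two-sided, with Benjamini-Hochberg adjustment over all entries. Preparation used Python 3.11.15. The spread between 3 libraries limits the precision, and these are biological replicates per the design text.

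The members, their role groups and the other lists were chosen with earlier results of these data known. In each comparison up to 6 called members per direction with the strongest change were described with values, plus at least 1 of each role group and CCNB1, CDK1, PLK1, AURKA, CDC20, MKI67, TOP2A and FOXM1, and up to 3 called genes per direction of each other list. Entries with merged names (5 members) and loci shared with other entries (17 members) were kept. Alternatives changed the scaling, pseudocount, filter, weights, samples in the fit, merged entries, replicate block and libraries; the sum of all entries at a locus was added after seeing the data. Promoter windows came from RefSeq (GRCh38.p14).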

Additional observations from a re-analysis of the deposited data

Results flagged for a closer look

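The R5020 response of 21 members differed between T47D-co and T47D-Y with water, in a test of the difference itself (limma interaction term, Benjamini-Hochberg adjusted p under 0.05 over all entries). In that test 9 members (22.5%) were called higher and 12 (30%) lower, against 21.6 and 23% of all entries. These shares lay near the background on the common scale. Under quantile normalization the share of members called lower lay well above that of all entries, as given above. Each value below is the log2 fold change in T47D-co minus that in T47D-Y, from 3 libraries in each of the 4 groups. The difference was above 0 for the cytokinesis kinesins KIF20A at 0.58 and KIF23 at 0.46, for the checkpoint genes MAD2L1 at 0.51 and BUB1B at 0.42, for CDC20 at 0.35 and ESPL1 at 0.18 among the anaphase genes, for the passenger complex genes BIRC5 at 0.35 and CDCA8 at 0.29, and for MKI67 at 0.17. It was below 0 for the kinetochore and centromere genes CENPE at -0.50, CENPA at -0.26 and NDC80 at -0.26. Among the kinases it was below 0 for PLK1 at -0.25, NEK2 at -0.23, TTK at -0.21 and AURKA at -0.18. Among the remaining role groups it was below 0 for TOP2A at -0.30, ASPM at -0.28, HMMR at -0.27, ECT2 at -0.18 and CCNB1 at -0.12.

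MKI67 had a difference of -0.09 under quantile normalization, and of the 12 fits that each left out a library CCNB1 was not called in 8 and NEK2 and TTK in 6 each. AURKA was not called without T47D-co EtOH water replicate 3 (-0.14), nor ESPL1 without T47D-co R5020 water replicate 2 (0.17), T47D-co EtOH water replicate 2 (0.14) or T47D-Y R5020 water replicate 1 (0.14). For KIF20A the R5020 response of the whole locus in T47D-co with water was 0.10, against 0.52 for the entry. Line and receptor state cannot be told apart.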

How the results depend on the processing

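Counts of members called kept their direction and stayed within 1.5 times of the value reported under a pseudocount of 10 and without merged entries in all 16 comparisons. The exceptions under other settings follow. Under quantile normalization R5020 in T47D-co with IFN gave 24 calls (7 higher, 17 lower), and IFN in T47D-co with R5020 gave 9. On the deposited scale IFN gave 11 and 21 calls in T47D-co with R5020 and EtOH and 40 and 40 in T47D-Y, all lower. The line by IFN difference gave 31 there, all higher, where 9453 of all 20162 entries were called higher and 73 lower. The median of all entries on that scale was -0.165, -0.182, -0.481 and -0.474 for IFN and 0.289 for the line by IFN difference. IFN in T47D-co with EtOH gave 1 call with no filter, 1 with voom weights, 0 with the compared groups alone and 0 without the 4 libraries of low mitochondrial share. Without those 4, T47D-Y with R5020 and water kept 1 library, so no count is given for IFN in T47D-Y with R5020. The cause was not tested for these.

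Single genes reversed on quantile normalization, for R5020 in T47D-co with IFN: CENPF -0.16, CDK1 -0.12, ANLN -0.10, KIF11 -0.06, MKI67 -0.05 and PRC1 -0.05; with water: ANLN -0.14, TPX2 -0.04 and MKI67 -0.03; and for the line by R5020 difference MKI67 -0.09. On the deposited scale they reversed for IFN in T47D-co with EtOH (MKI67 -0.05), in T47D-Y with R5020 (CDK1 -0.29, NUSAP1 -0.29, TPX2 -0.28, KIF20A -0.27, DLGAP5 -0.24, MKI67 -0.21) and with EtOH (CCNB1 -0.30, KIF23 -0.29, FOXM1 -0.29, CDK1 -0.27, NUSAP1 -0.26, MKI67 -0.19), and between the lines with R5020 and water (BIRC5 -0.02, CDK1 -0.01) and with EtOH and water (PLK1 -0.01).

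Leaving out 1 library at a time gave 24 to 26 calls for R5020 in T47D-co with IFN and 23 to 24 with water, and 0 in T47D-Y. For IFN it gave 6 to 16 in T47D-co with R5020 and 0 to 3 with EtOH, and 8 to 13 and 9 to 12 in T47D-Y. Between the lines it gave 36 to 37 and 35 to 36 with R5020, and 34 to 35 and 30 to 36 with EtOH, with IFN given before water. For the interactions it gave 18 to 21 (line by R5020) and 0 for the others. Of 164 named values 143 kept their call in all such fits. Replicate numbers did not pair the libraries: deviations of same-numbered libraries had a median correlation of 0.001, with 13 of 84 pairs over 0.1, and 6 of 24 libraries correlated best with their own number. With the replicate number as a block, R5020 gave 26 calls in T47D-co with IFN and 26 with water and 0 in T47D-Y, and IFN gave 15 and 2 in T47D-co and 13 and 15 in T47D-Y with R5020 and EtOH. The block gave 37, 36, 34 and 35 between the lines, 20 for the line by R5020 difference and 0 for the other interactions. The lowest member value was 187 scaled fragments, so no member was near the filter, and the number of libraries, 3 a group, limits which changes could be called.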
